A study of Mus musculus with 8 samples.

Results

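The 4 wild-type arrays of the series, out of 8 arrays in all, describe gene expression in normal mouse small intestine at the end of fetal life. They were selected by their titles, and the other 4 arrays, of intestines lacking the zinc finger gene Plagl2, were not used. Each wild-type sample is total RNA of small intestine at 18.5 days post coitum, hybridised to 1 Affymetrix MOE430 2.0 array. The labels give neither strain, sex, litter nor the number of animals behind a sample, so the spread between the arrays may be partly technical. No test was made, since all 4 arrays belong to 1 group, and every value below is a description of these arrays.

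The late fetal mouse intestine already carries villi, although the crypts of the adult form only after birth. Proliferating cells lie in the epithelium between the villi, and the enterocytes of the villi make lipoproteins and take up macromolecules by endocytosis into large lysosomes. That uptake, and the use of lactase rather than sucrase, gives way to the adult program at weaning. Around the epithelium lie mesenchyme, smooth muscle, vessels, macrophages and the enteric nervous system.

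A signal in these data is a linear intensity with no unit, scaled by the authors so that arrays share a trimmed mean of 150.05. After removal of 64 control probe sets, 45037 probe sets were used, and 18193 genes were each represented by the probe set with the highest mean among those listed with 1 gene symbol. Probe sets differ in how brightly they report the same amount of RNA, so an order of signals is not an order of transcript abundance. The background level was 29.5, the 95th percentile of 125 probe sets for odorant, pheromone, taste and trace amine receptors and hair keratin-associated proteins. A gene was called above background when its signal exceeded 29.5 in all 4 arrays, which held for 10960 genes (60.2%) and for 21195 probe sets (47.1%). Of the 125 family probe sets themselves, 2 passed this rule. Counts of list members above background, given below, are to be read beside the 60.2% of all genes.

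Array medians were 38 to 40, and 57.8%, 55.5%, 56.5% and 56.2% of probe sets exceeded the background level in replicates 1 to 4. Replicate 3 stood apart from the other 3 arrays. Over the genes above background, the correlation of log2 signals across genes, which are not independent replicates, was 0.961 to 0.969 for pairs with replicate 3 and 0.982 to 0.985 for the other pairs. The leading principal component, which held 57.6% of the variance, placed replicate 3 at 28.7 and the others at -4.90, -9.01 and -14.7. The 3' minus 5' difference of actin control probe sets was 0.46, 0.40, 0.36 and 0.33 on the log2 scale in replicates 1 to 4. That of Gapdh was -0.45, -0.39, -0.48 and -0.37. Replicate 3 lay within the range of the others for actin and was lowest for Gapdh, close to replicate 1. Whether RNA quality differed between the arrays was not tested. Xist gave 21, 20, 33 and 43 and was not above background, while the Y-linked gene Eif2s3y gave 770, 562, 721 and 646, so all 4 samples carried a signal of the male chromosome.

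Products of the absorptive enterocyte led the ranking by signal. Fabp1, which encodes the liver-type fatty acid binding protein of the proximal gut, had the highest mean of all genes, with 14201, 14479, 13823 and 13506 in replicates 1 to 4 (14002 ± 426, SD, n = 4). Apoa1, the main protein of high density lipoprotein, gave 14483, 14768, 11424 and 13592, with replicate 3 lowest. The intestinal fatty acid binding protein Fabp2 gave 10992, 10932, 9675 and 9970, and the chylomicron apolipoprotein Apoa4 gave 10034, 11288, 8566 and 9545. Apoc2, the cofactor of lipoprotein lipase, was also among the 20 brightest genes (8510 ± 1338, SD, n = 4). Fabp1 or Apoa1 held the highest signal of each array (13592 to 14768). Others of the 20 were of general function: the ribosomal proteins Rps29, Rpl13a, Rps3a1, Rpl41, Rpl38 and Rps28, the translation factor Eef1a1, the abundant cytosolic protein gene Tpt1, the cytoskeletal genes Actb and Tmsb10, and the respiratory chain subunit Uqcrb. The mitochondrial fatty acid oxidation enzyme Hadh (9764), the aldehyde reductase Akr1a1 (8680), the desaturase Scd2 (8556) and the epithelial lectin Lgals4 (8154) completed the 20. Together the 20 genes held 3.27% of the summed signal of all genes, the 100 brightest held 12.2% and the 1000 brightest 48.4%.

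**Figure D1:**
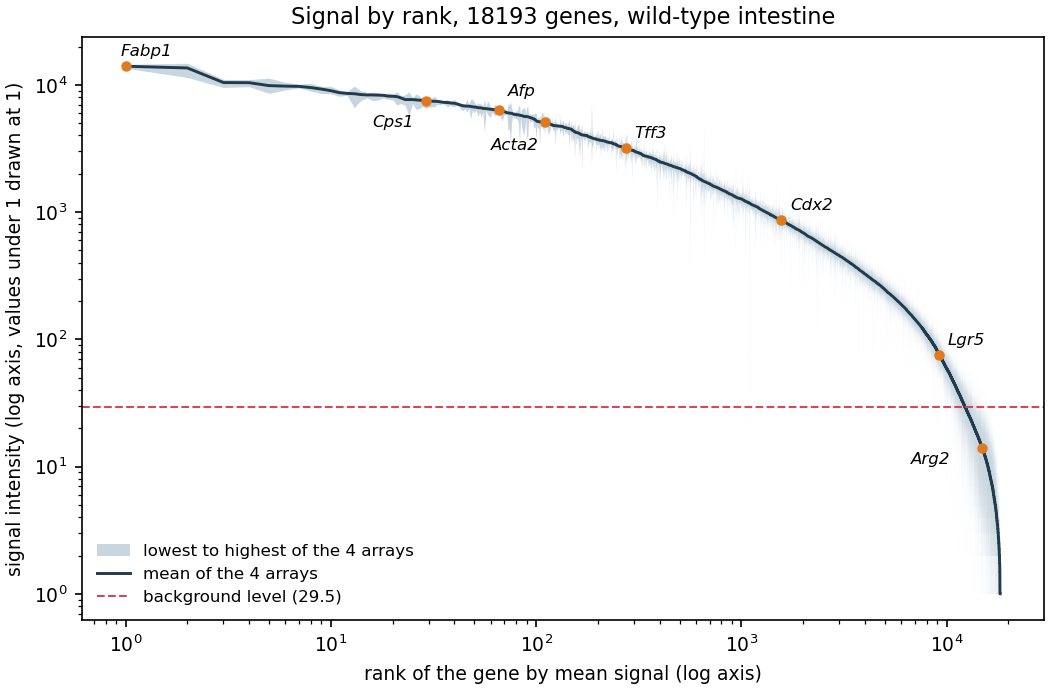
Mean signal of 18193 genes against their rank in the wild-type intestine, both on log axes, with the range of the 4 arrays as shading and the background level of 29.5 as a dashed line. The curve falls slowly from Fabp1 at 14002 to about rank 100 and then falls steeply through the background level, with the named genes marked for orientation.

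The start region of Fabp1 is shown because this gene gave the highest signal and its upstream sequence holds the TATA motif TATAAA. The window runs from 250 bases before to 50 after the transcription start in the RefSeq annotation of GRCm38.p6, at chr6:71199629-71199928 on the plus strand, with the motif in capitals.
Fabp1: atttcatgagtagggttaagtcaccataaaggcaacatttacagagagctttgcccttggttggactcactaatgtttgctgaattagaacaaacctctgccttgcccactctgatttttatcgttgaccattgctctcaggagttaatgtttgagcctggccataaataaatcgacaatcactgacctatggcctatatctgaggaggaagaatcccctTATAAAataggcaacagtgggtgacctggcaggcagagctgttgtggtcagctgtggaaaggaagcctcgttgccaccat
The first base of TATAAA lies 30 bases before the start. On the sense strand this motif was found in 6.21% of 18109 promoter windows of 14452 measured genes, and 3741 genes had no window in the table. Its share was 9.02% in genes not above background and 4.56% in those above. With the first base 40 to 20 bases before the start, as in Fabp1, it was present in 3.89% and 1.29%. The share was not uniform above background. At any position it was 4.55% up to a signal of 200, 4.17% from 200 to 1000 and 5.79% from 1000 to 5000. Over 5000, the class of Fabp1, it was 8.11% (9 of 111 windows), with 1 of them at that distance. The median ratio of observed to expected CpG was 0.373 in windows of genes not above background, 0.752 in those above, and 0.344 in 25 windows of the enterocyte and chylomicron lists. The median of the enterocyte and chylomicron lists thus lay nearer to that of genes not above background. A match is a description of the letters and not evidence of use.

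Absorptive enterocyte markers were at the top of the distribution as a group. All 14 measured of 15 listed markers were above background, with a median signal of 5422 and a median percentile of 99.5 among all genes, which was the same without replicate 3. All genes had a median signal of 78.5. Lactase (Lct), the milk sugar hydrolase of the brush border, gave 5954, 6433, 4654 and 5915. Intestinal alkaline phosphatase (Alpi) gave 5580, 6009, 3759 and 5547, and the vitamin A binding protein Rbp2 gave 5578, 6176, 3893 and 6838. In each of these replicate 3 was lowest, and for Lct and Alpi the other 3 lay close together. The peptide transporter Slc15a1 was the dimmest marker of the list (482 ± 89.2, SD, n = 4).

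Chylomicrons carry absorbed fat into the lymph, and all 22 listed genes of their assembly and of triglyceride resynthesis were above background (median percentile 98.8). Mttp, which loads lipid onto apolipoprotein B, gave 7509, 5869, 6401 and 6112, and Apob itself gave 4725, 5241, 2640 and 4604. Replicate 3 was thus the lowest array for Apob by far, while Mttp showed no such gap. Acsl5, which activates fatty acids, gave 7659 ± 618, and Apoc3, an inhibitor of lipoprotein clearance, gave 7654 ± 1347 (SD, n = 4). The acyltransferases Mogat2 (2576), Dgat2 (3208) and Dgat1 (1750), which rebuild triglyceride, and the lipid droplet coat protein Plin2 (3879) were also bright. Gpat3, an acyltransferase of the glycerol phosphate route, was the dimmest member at 486.

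The endocytic and lysosomal apparatus of the fetal enterocyte was also bright, with a median signal of 2710. All 15 measured of 16 listed genes were above background, with a median percentile of 98.1, and 13 exceeded a signal of 1000. Fcgrt, the neonatal receptor that carries maternal antibody, gave 7632, 7323, 4221 and 6875. The lysosomal protease Ctsl gave 6360, 6984, 4405 and 6307. The endosomal protein Mamdc4 gave 4995, 5208, 4455 and 5119. Fcgrt and Ctsl were clearly lower in replicate 3 than in the other arrays, Mamdc4 less so. Cubn (2516 ± 630) and its partner Amn (2710 ± 341, SD, n = 4), which form a receptor for vitamin and protein uptake, were bright as well. The related receptor Lrp2 gave only 209, 170, 54 and 117. Prdm1, a transcriptional repressor that holds back the adult enterocyte program, gave 853 ± 88.9 (SD, n = 4).

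Brush border hydrolases were mostly bright, with 10 of 12 measured genes above background and all 10 over 1000. After Lct and Alpi came the aminopeptidase Enpep with 4450, 4428, 4681 and 4259. The endopeptidases Mme and Mep1a gave 2364 ± 425 and 2041 ± 347 (SD, n = 4). Microvillus and keratin genes were above background in 15 of 15, led by the keratin Krt8 (4217), the cadherin Cdhr5 (4058) and the scaffold Slc9a3r1 (3958). Cdhr5 was 4422, 4864, 2165 and 4780 by replicate. The villus protein Vil1 differed less, with 2640, 2982, 2478 and 2709. The structural genes of the brush border were therefore not all equally low in replicate 3.

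Genes known to rise at weaning separated by gene. Of 7 measured, 4 (57.1%) were above background, against 60.2% of all genes. The trehalose hydrolase Treh (30, 11, 23 and 28), the mitochondrial arginase Arg2 (18, 17, 12 and 9) and the alkaline phosphatase Akp3 (31, 24, 17 and 31) were not. The fructose transporter Slc2a5 gave 51, 50, 60 and 83. In contrast, the maltase Mgam gave 1287, 1276, 1387 and 1157 and the antimicrobial lectin Reg3b 532, 258, 611 and 467. Sucrase was not analysed here.

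Nutrient transporters showed the same mixture. The sodium glucose transporter Slc5a1 gave 2160, 2537, 1778 and 2796, the facilitative transporters Slc2a1 and Slc2a2 gave 1386 ± 132 and 1376 ± 399, and the neuronal-type transporter Slc2a3 gave 48.0 ± 11.5 (SD, n = 4). Among 10 amino acid and peptide transporters, 9 were above background, led by Slc7a9 (3610) and its heavy chain Slc3a1 (2442), which import cystine and basic amino acids. Slc1a1, a glutamate transporter, gave 47, 18, 27 and 3 and was not above background. For iron, the storage protein Fth1 (7621) and the exporter Slc40a1 (4221 ± 599, SD, n = 4) were brightest. The importer Slc11a2 gave 1538, 1631, 891 and 1788, and hepcidin (Hamp), the hormone that limits iron export, was not above background.

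The fetal intestine is known to make citrulline and arginine. Cps1, which starts this route in mitochondria, gave 7997, 7925, 6547 and 7403, and the ornithine aminotransferase Oat gave 7619, 7325, 7165 and 6973. Aldh18a1, which makes the proline and ornithine precursor, gave 4786 ± 353, and Otc gave 1510 ± 128 (SD, n = 4). Replicate 3 was the lowest array for Cps1 and the highest for Otc (1491, 1446, 1696 and 1409). Argininosuccinate synthetase (Ass1) was dim at 44, 73, 96 and 111, while the lyase Asl gave 868, 1073, 731 and 1068. The cytosolic arginase Arg1 was not above background (24, 7, 22 and 19), like Arg2.

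Bile acid genes of the distal intestine were uneven. The bile acid sensor Nr1h4 was one of the most constant genes of the tissue, with 1217, 1199, 1177 and 1201. The basolateral exporter subunits Slc51a (1476) and Slc51b (443) were above background. The ileal bile acid binding protein Fabp6 gave 222, 460, 13 and 101, so it was above background in 3 arrays and under it in replicate 3. The apical uptake transporter Slc10a2 (2, 0, 13 and 7) and the ileal hormone Fgf15 (47, 47, 1 and 2) were not above background. Cholesterol synthesis was present in all 19 measured genes, with Hmgcs1 (3252 ± 200), Fdps (2467 ± 288) and Msmo1 (1868 ± 128, SD, n = 4) brightest. The sterol uptake protein Npc1l1 gave 1403, 1372, 871 and 1589, and the exporter Abcg8 gave 145, 258, 55 and 269, both lowest in replicate 3.

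Goblet cells secrete mucus, and all 11 of their markers were above background, at a median percentile of 90.5. The trefoil peptide Tff3 was brightest with 2248, 4135, 2463 and 3905, and the mucus protein Zg16 gave 820, 3125, 1948 and 3275. Muc2, the gel-forming mucin, gave 224, 388, 198 and 393. Replicates 2 and 4 were the higher arrays for these genes and replicates 1 and 3 the lower, without overlap. The fate regulators Atoh1 (61.2 ± 11.2) and Spdef (54.2 ± 9.39, SD, n = 4) were dim and did not divide the arrays this way.

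Enteroendocrine cells are rare hormone cells, and 15 of 22 of their genes (68.2%) were above background, against 60.2% of all genes. Gip, which is released on feeding, was the brightest hormone gene with 896, 800, 567 and 951. Secretin (Sct) followed with 516, 501, 535 and 487, and was nearly the same in every array. Neurotensin (Nts) gave 506, 547, 235 and 496, and cholecystokinin (Cck) gave 310 ± 33.7 (SD, n = 4). Glucagon (Gcg), the source of glucagon-like peptides, ran the other way, with 395 in replicate 3 against 180, 191 and 159. Tph1, the serotonin synthesis enzyme of enterochromaffin cells, was not above background at 48, 37, 26 and 35.

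Markers of cell types that mature after birth were largely at background. Of 6 measured Paneth cell genes only Lyz1 was above it (307, 293, 209 and 396), and Itln1, which goblet cells also make, gave 170, 161, 21 and 392. The defensin Defa3 gave 27, 15, 16 and 8. A probe set listed with 2 alpha-defensin genes, which cannot be assigned to either, nevertheless gave 919, 1694, 635 and 1051, while another such probe set gave 1 to 6. For tuft cells, the chemosensory cells of the epithelium, 1 of 7 genes was above background, and the channel Trpm5 (13.2) and the fate regulator Pou2f3 (22.8) were not. For M cells, which overlie lymphoid follicles, 2 of 5 were, and the receptor Gp2 (20.5) was not.

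All 17 measured genes of stem and intervillus cells were above background, but most were dim, with a median signal of 112. Lgr5, the Wnt target that marks intestinal stem cells, gave 78, 63, 72 and 90. Ascl2, a stem cell transcription factor, gave 57.8 ± 10.4, and the Wnt feedback gene Axin2 gave 64.5 ± 14.8 (SD, n = 4). Lgr5, Ascl2 and Axin2 thus lay close to the background level. Olfm4, a secreted product of the same cells, gave 1349, 1496, 395 and 1233, and the ion cotransporter Slc12a2 gave 1647, 1791, 934 and 1344. These brightest members were both lowest in replicate 3, where Lgr5 was not.

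The wall around the epithelium gave strong signals. Of 13 smooth muscle genes 12 were above background, led by the actins Acta2 (5442, 4856, 6016 and 4076) and Actg2 (2510, 1890, 3421 and 1743), the tropomyosin Tpm2 (2668) and the kinase Mylk (2666). Myocd, which switches on the contractile program, gave 202, 137, 193 and 75. The median of the probe sets of Acta2 was only 47.5, so its level rests on the highest one. Mesenchyme was represented by 13 of 16 genes, with the collagens Col3a1 (4100, 4112, 4842 and 3788) and Col1a2 (2489, 2122, 2969 and 1730) and the intermediate filament Vim (2782) brightest. For Acta2, Actg2, Col3a1 and Col1a2 the highest array was replicate 3 and the lowest was replicate 4. The winged helix gene Foxf1 gave 406 ± 33.3 (SD, n = 4), and Foxl1 and Gli1, genes of the cells beneath the epithelium, were not above background.

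Of 17 genes of enteric neurons 12 (70.6%) were above background, against 60.2% of all genes, and at modest signals. The nerve cell genes Stmn2 (163 ± 31.2) and Hand2 (166 ± 54.1), the transmitter gene Vip (140 ± 12) and the synthase Nos1 (102 ± 12.7, SD, n = 4) were among the brightest. Ret, the receptor needed for colonisation of the gut by neural crest, gave 110, 170, 180 and 110. Of 7 glial genes 5 (71.4%) were above background. Ednrb (1315) and Erbb3 (1174) far exceeded Sox10 (45.5) and S100b (56.5), and both are known from other gut cells as well. The pacemaker genes Kit (69.8) and Ano1 (68.0) were dim.

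All 13 blood endothelial genes were above background, with Plvap (468, 476, 361 and 478), the protein of vessel fenestrae, brightest. Lymphatic endothelium was seen by Lyve1 (323 ± 38.4) and Flt4 (154 ± 17.8, SD, n = 4), while the lymphatic regulator Prox1 (30, 29, 26 and 8) was not above background. All 13 macrophage genes were above it. Csf1r, the receptor for macrophage growth factor, gave 3714, 4114, 2874 and 4306, and complement C1qb gave 409, 344, 331 and 428. Csf1r was far brighter than C1qb, the next gene of that list. The common leukocyte antigen Ptprc gave 215 ± 23.0 (SD, n = 4).

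Lymphocytes and mast cells were not detected by their own genes. Beyond Ptprc, which all leukocytes share, 0 of 11 lymphocyte genes were above background, including Cd3e (5.75), Cd79a (12) and Rag1 (1.75), and of 8 mast cell genes 0 were, including Cpa3 (27.0). These counts are of signals over a level in 4 arrays, with no test behind them. For red cells, 1 of 8 genes was above background by probe sets with a single symbol, the haem enzyme Alas2 (170, 192, 312 and 167). That count leaves out the adult globins, since their main probe sets are listed with several genes each. Those 4 probe sets gave mean signals of 7604 to 8441, among the brightest in the tissue, so the count of 1 of 8 does not describe haemoglobin. Hba-a1 by its own probe set gave only 22.8 ± 16.3 (SD, n = 4). The embryonic globins Hbb-y (17.8) and Hba-x (18.5) were at background.

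**Figure D2:**
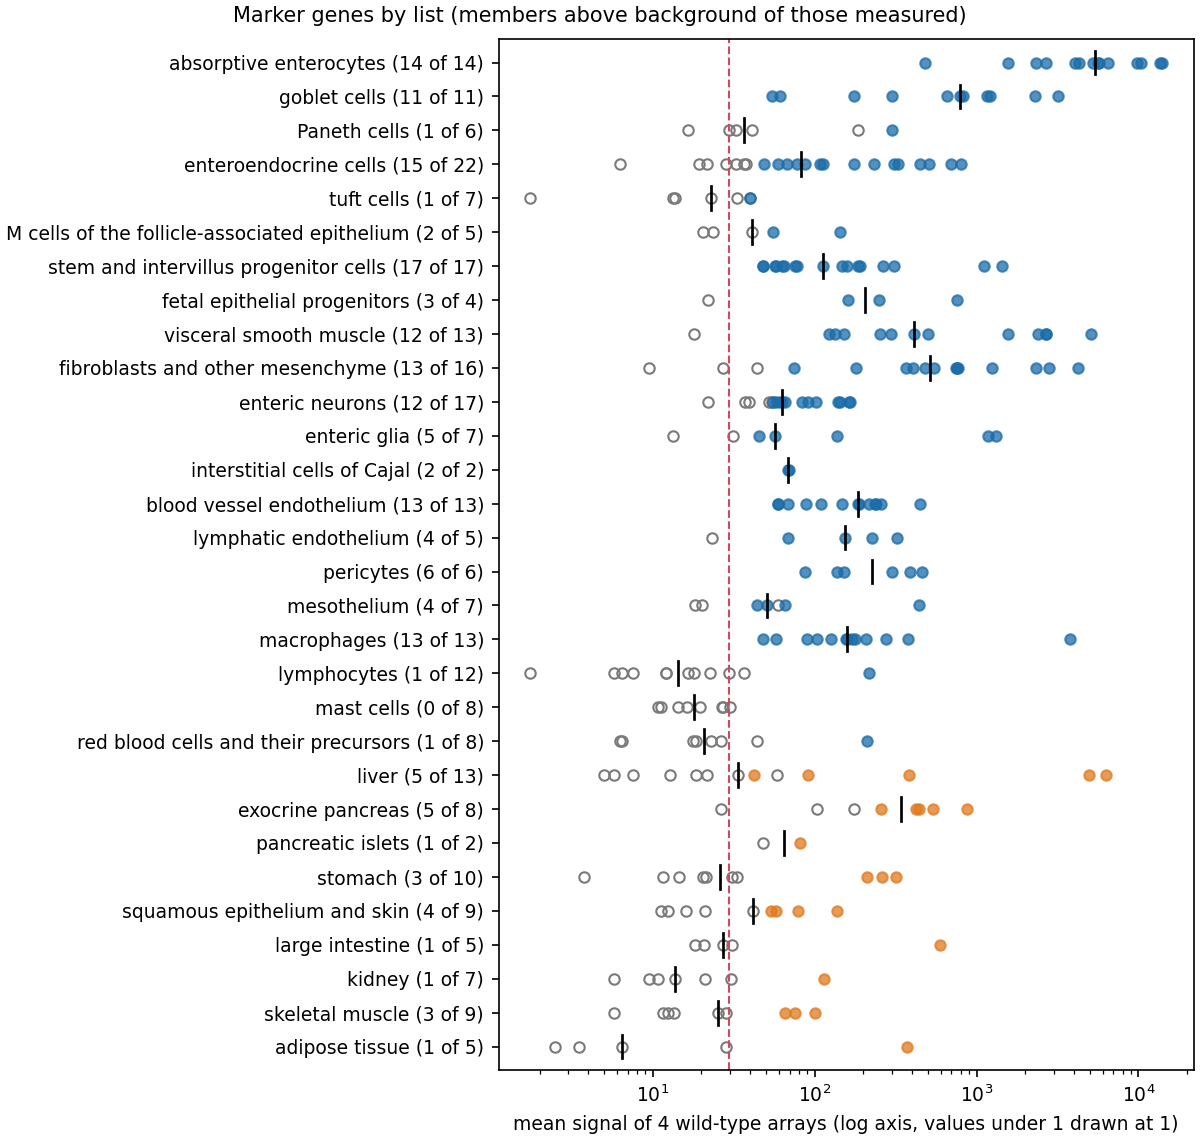
Mean signal over the 4 wild-type arrays of each measured marker, by list, on a log axis; filled points are above background in all arrays (blue for cell types, orange for neighbouring or other tissues), open points are not, black bars are list medians and the dashed line is the background level of 29.5. Enterocyte markers have a median of 5422, while those of tuft cells, lymphocytes and mast cells lie mostly left of the line.

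Markers of neighbouring tissues were examined because dissection can carry them along. Of 13 liver genes 5 were above background. The fetal serum proteins Afp (6546, 6825, 5835 and 5979) and Ttr (5856, 4033, 4089 and 5826) were bright. The fibrinogen chains Fga (558, 408, 209 and 345) and Fgb (51, 137, 90 and 85) and the tryptophan-degrading enzyme Tdo2 (30, 49, 38 and 52) were dimmer. Albumin (Alb), the defining liver gene, gave 15, 22, 122 and 75, so it was over the background level in replicates 3 and 4 and under it in replicates 1 and 2. The other 7, among them Ahsg (5.75), Tat (5) and Hpx (7.5), were not above background. Of 10 stomach genes 3 were above background, Gkn3 (263, 251, 92 and 240), Tff1 (269, 216, 277 and 274) and Tff2 (372, 376, 103 and 426), while the proton pump Atp4a (33.2) and the mucin Muc5ac (3.75) were not. Aqp8, a water channel that the small intestine makes as well, was the only large intestine gene of 5 above background (598). Kidney, skeletal muscle and fat gave 1 of 7, 3 of 9 and 1 of 5. The summed signal of the liver list was 10488 to 13155 over the arrays and that of the stomach list 612 to 1040, with 0 genes at 0 in any array. Most of the liver sum came from Afp and Ttr. It was lowest in replicate 3, where Alb was highest.

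Exocrine pancreas genes differed most between the arrays, since most of them were brighter in replicates 2 and 3 than in replicates 1 and 4. Ctrb1, a pancreatic protease precursor, gave 313, 1584, 1388 and 211. Colipase (Clps), the cofactor of pancreatic lipase, gave 168, 665, 776 and 153, and the elastases Cela2a and Cela3b gave 95, 506, 384 and 45, and 261, 652, 671 and 108. For these genes replicates 2 and 3 did not overlap with replicates 1 and 4. Carboxypeptidase Cpa1 gave 41, 304, 336 and 16 and Cpb1 gave 51, 232, 128 and 3, following the same division. Of 8 measured genes of the list 5 (62.5%) were above background in all arrays, against 60.2% of all genes. The list summed to 1482, 4676, 4086 and 1109 in replicates 1 to 4. Ptf1a, a transcription factor of acinar cells, gave 42, 15, 29 and 20, and Cela1 gave 511, 718, 374 and 553, so these members did not follow the others. Insulin (Ins2) gave 129 in replicate 3 against 26, 28 and 8. Whether pancreas tissue was present in any sample, and whether it has a part in other differences between the arrays, was not tested.

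The Hox genes, which record position along the body axis, split by group number. Of 19 measured genes of groups 1 to 8, 11 were above background, with means of 5.25 to 256. Of 14 genes of groups 9 to 13, 0 were, with means of 2.00 to 27.2. Over all genes the share above background was 60.2%. Hoxa5 was brightest with 256, 240, 377 and 152, followed by Hoxb3 (168 ± 43.5) and Hoxb2 (118 ± 23.6, SD, n = 4). Hoxa13 (27.2) and Hoxd13 (20.8), markers of the hindgut, were at background. This division is by signal alone and a dim probe set cannot be told from a silent gene.

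Of 22 measured epithelial transcription factors, 20 were above background. Plagl1, an imprinted relative of Plagl2, was brightest with 4614, 4449, 5081 and 4055, although the median of its probe sets was 145. Creb3l3, a membrane-bound regulator of lipid genes, gave 2876 ± 447, and Hnf4a, a nuclear receptor of enterocyte identity, gave 2108 ± 264 (SD, n = 4). Cdx2, which sets intestinal fate, gave 844, 920, 825 and 851, and Plagl2 itself gave 892, 871, 701 and 733. Cdx2 was among the steadier of these genes, with an SD of 0.07 on the log2 scale. Plag1 (13.5) and Foxa2 (36.8) were not above background. Of 18 nuclear receptors 15 were above it, with Nr1h4, Esrra (756) and the glucocorticoid receptor Nr3c1 (451) brightest, and Pparg (56, 18, 57 and 31) not.

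Signalling between the layers was read from ligands, receptors and targets. Of the hedgehog ligands, Ihh gave 182, 206, 168 and 158 and Shh gave 41, 38, 118 and 52, with replicate 3 high for Shh alone. Their receptor and target Ptch1 was bright by its highest probe set (1230 ± 170, SD, n = 4), while the median of its probe sets was 44.0. Among BMP genes, the ligand Bmp7 (326), the receptor Bmpr1a (385) and the target Id2 (1931) were above background, and the inhibitor Nog (20) was not. For Wnt, 10 of 21 genes were, with Ctnnb1 (6612), the receptor Fzd5 (454) and the co-receptor Lrp6 (310) brightest. The ligand Wnt3 (1.5) and the enhancers Rspo1 (28.8) and Rspo2 (25.5) were not above background, while Rspo3 gave 85, 45, 73 and 34. Of 12 Notch genes 10 were, with the ligand Dll1 (314) and Rbpj (265), the nuclear partner of the receptors, brightest.

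Fetal growth genes were bright. The growth factor Igf2 gave 5826, 5907, 6211 and 5355, and the imprinted cell cycle inhibitor Cdkn1c gave 5975, 6655, 5150 and 6093. Mest (1569), Grb10 (1506) and Meg3 (1504) were also over 1000, while Peg10 (21.0), Phlda2 (11.2) and the fetal RNA-binding gene Lin28b (5.50) were not above background. Of 21 cell cycle genes 20 were above it, with Pcna (2416, 2287, 3074 and 2043) and Mcm7 (924, 1106, 1502 and 937) brightest. Both were highest in replicate 3. Mki67, made in dividing cells, gave 776, 787, 982 and 622.

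Of the energy metabolism lists, 8 respiratory chain, 2 glycolytic and 1 gluconeogenic genes exceeded a signal of 5000, beside 112 such genes in all. All 19 measured respiratory chain genes were above background, at a median percentile of 99.2 and a median SD of only 0.06 on the log2 scale. Cox7a2 gave 7327, 7375, 7110 and 7392. Cox7c, a subunit of the same complex, was listed at 115, 110, 173 and 122, an example of a dim probe set for a gene whose complex is bright. Among glycolytic genes Ldha (5494 ± 323) and Pgk1 (5132 ± 346, SD, n = 4) led. Of the gluconeogenic genes, Fbp1 gave 6282, 6347, 3512 and 6977 and Pck1 gave 1570, 1940, 673 and 1242, both lowest in replicate 3. All 8 endoplasmic reticulum folding and stress genes were above background, at a median percentile of 94.4. They ranged from the unfolded protein response factor Ddit3 at 205 ± 33.0 to the chaperone Hspa5 at 4081 ± 179 (SD, n = 4).

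Across the 10960 genes above background, the median SD of log2(signal + 16) over the 4 arrays was 0.18. It was 0.21 for genes with a mean signal up to 200, 0.16 from 200 to 1000, 0.12 from 1000 to 5000 and 0.10 over 5000, so the median fell with signal. An SD of 0.5 or more was reached by 312 genes (2.85%). This share did not fall with signal up to 5000, being 2.79%, 2.92% and 3.08% in these classes, and was 0 of 112 genes over 5000. Without replicate 3 the median over the same genes was 0.13 and 137 of them reached 0.5. Of the 312 genes, the array furthest from the other 3 was replicate 3 in 217, which was lower in 168 and higher in 49.

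**Figure D3:**
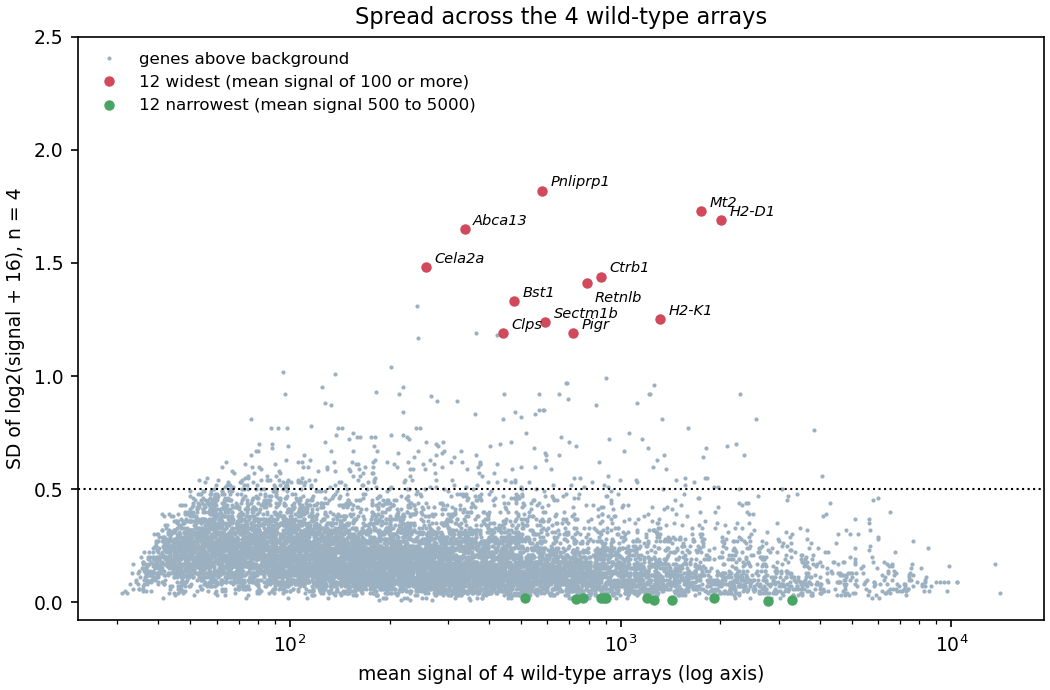
SD of log2(signal + 16) over the 4 wild-type arrays against mean signal (log axis) for 10960 genes above background, with the 12 widest genes of mean signal 100 or more in red, the 12 narrowest of mean signal 500 to 5000 in green and the limit of 0.5 dotted. Most genes lie under 0.25, and the widest, Pnliprp1, lies at 1.82.

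The most constant genes, among means of 500 to 5000, were mostly of general cell function. Cox8a, a respiratory chain subunit, gave 2788, 2798, 2787 and 2769. The actin-binding gene Pfn1 gave 3327, 3281, 3275 and 3297. Others were the membrane protein genes Tspan3, Lman1, Gpr89 and Vti1b, which act in membrane traffic or at membranes, with Tspyl1, Trir, Gna11 and Cpsf1. The zinc transporter Slc39a5 (878, 886, 874 and 858) and Nr1h4 were the intestinal genes among the 12. Their SDs were 0.0062 for Cox8a to 0.0196 for Nr1h4 on the log2 scale. Of genes often used as references, Ywhaz gave 3546, 2654, 4270 and 4193 and B2m gave 6250, 6990, 4490 and 6271. A wider spread than that of the 12 is given by the choice, since these were taken for a small SD. Over 7 measured reference genes the median SD was 0.075, against 0.18 over all genes above background.

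The widest genes fell into several patterns by array. Pnliprp1, a lipase-related pancreatic gene, had the largest SD (1.82), with 230, 954, 1067 and 59. It shared the division of replicates 2 and 3 from replicates 1 and 4 with Ctrb1, Cela2a and Clps, described above, which are also among the 12. The metal-binding protein Mt2 gave 507, 583, 5519 and 404, an SD of 1.73 that was 0.26 without replicate 3. Bst1, a surface enzyme of nucleotide metabolism, gave 505, 582, 84 and 731, and the secreted protein gene Sectm1b gave 682, 722, 121 and 844. Pigr, which carries antibody through the epithelium, gave 732, 1236, 168 and 743. In Bst1, Sectm1b and Pigr, replicate 3 alone was low, and the SD without it was 0.26 for Bst1, 0.16 for Sectm1b and 0.42 for Pigr. Retnlb, a goblet cell product, was high in replicate 4 alone, with 338, 624, 191 and 2002. Abca13, a lipid transporter gene, was low in replicates 3 and 4, with 501, 611, 202 and 35.

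**Figure D4:**
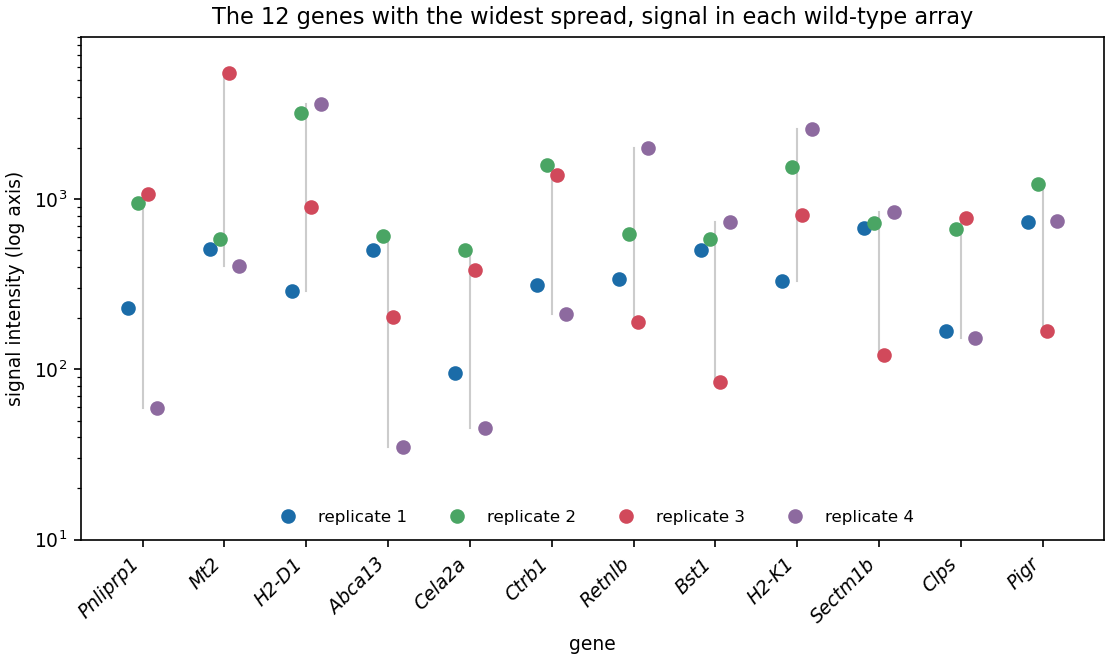
Signal (log axis) in each wild-type array of the 12 genes with the widest spread among those above background with a mean of 100 or more. Mt2 is high only in replicate 3 (5519), the pancreatic genes Pnliprp1, Cela2a, Ctrb1 and Clps are high in replicates 2 and 3, and H2-D1 and H2-K1 are low in replicate 1 (290 and 331). Each gene is drawn by its brightest probe set, and the probe sets of H2-D1 disagree.

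Metallothioneins bind zinc and copper and are known to be switched on by them. Mt1 was chosen for display after its values were seen. It gave 2599, 3074, 7427 and 2310, so replicate 3 was highest for both metallothioneins, by 1.49 for Mt1 and 3.44 for Mt2 on the log2 scale from the mean of the other 3. Slc39a4, the apical zinc importer, also chosen after its values were seen, was lowest in the same array, with 1519, 1312, 410 and 1669. The start regions of Mt2 and Mt1 are printed because both genes were highest in replicate 3. They are neighbouring windows of chromosome 8, chr8:94172368-94172667 and chr8:94178839-94179138, both on the plus strand, from the RefSeq table of GRCm38.p6. Capitals mark matches to TGCGCNC or TGCACNC on either strand, the core letters known to be bound by the metal-responsive factor MTF-1.
Mt2: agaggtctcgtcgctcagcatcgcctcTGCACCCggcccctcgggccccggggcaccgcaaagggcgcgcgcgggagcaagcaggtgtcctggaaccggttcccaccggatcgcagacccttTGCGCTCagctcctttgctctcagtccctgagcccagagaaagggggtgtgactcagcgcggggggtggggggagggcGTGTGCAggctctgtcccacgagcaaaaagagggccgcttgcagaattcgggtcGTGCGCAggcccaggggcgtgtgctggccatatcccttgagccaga
Mt1: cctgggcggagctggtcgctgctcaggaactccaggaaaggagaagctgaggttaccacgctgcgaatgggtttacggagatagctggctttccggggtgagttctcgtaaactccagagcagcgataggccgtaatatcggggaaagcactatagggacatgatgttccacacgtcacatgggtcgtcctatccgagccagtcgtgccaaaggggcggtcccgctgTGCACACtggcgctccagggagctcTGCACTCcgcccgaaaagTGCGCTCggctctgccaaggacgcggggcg
The window of Mt2 held 4 matches and that of Mt1 held 3, none overlapping another. Of all 18109 windows, 32.4% held at least 1 match and 0.718% held 4 or more. A match does not show binding, and the level of metals was not measured. In windows of genes with an SD of 0.5 or more, TATAAA was present in 11.5% (33 of 288), against 4.56% over all genes above background, and the median CpG ratio was 0.462.

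Genes of antigen presentation varied between the arrays in a way of their own. The class I genes H2-K1 (331, 1539, 805 and 2590) and H2-D1 (290, 3229, 905 and 3641), which show peptides to T cells, were lowest in replicate 1 and highest in replicate 4, and this spread was as wide without replicate 3 (SD 1.51 and 2.02). Their partner B2m was lowest in replicate 3 instead. For H2-D1 the probe sets disagreed. The next brightest of its 9 probe sets gave 193, 2852, 692 and 2574, like the brightest one, while the one after that ran the opposite way, with 2075, 1483, 800 and 22. H2-D1 therefore has no single order of arrays in these data. H2-K1 had 4 probe sets, all of them lowest in replicate 1 or 3 and highest in replicate 4. Between H2-K1 and Mog in the RefSeq gene order, 120 genes were measured and 83 were above background, of which 9 (10.8%) had an SD of 0.5 or more, against 2.85% of all genes. They include the class II genes H2-Eb1 (125, 240, 136 and 325) and H2-Ea (116, 145, 53 and 36), and Abhd16a (350, 638, 371 and 847), a lipid hydrolase. Without replicate 3 these were 6 of 83 (7.23%), against 1.25% of all genes. This stretch was chosen after the values were seen, and H2-K1 and H2-D1 themselves are counted in both shares. Part of the excess was thus given by the choice. Interferon-induced Ifit1 gave 922, 1009, 418 and 1090, and Ifit3 gave 240 in replicate 4 against 48, 45 and 47.

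Each array was then set against the mean of the other 3, gene by gene. In replicate 1, 262 genes were higher by 0.5 or more on the log2 scale (2.39%) and 199 lower (1.82%). In replicate 2 these were 227 (2.07%) and 267 (2.44%), and in replicate 4 they were 315 (2.87%) and 383 (3.49%). Replicate 3 had 747 higher (6.82%) and 853 lower (7.78%). Of these genes of replicate 3, 586 had another probe set above background, and in 478 all such probe sets were on the same side. This count was not made for other genes or arrays, so it has no share to be read against. Over all genes above background the median difference was at most 0.02 in size in any array, so the differences by list below are relative to almost no general shift.

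Most lists of absorptive epithelium were lower in replicate 3, while lists of the cells around the epithelium differed in direction. All 14 enterocyte genes were lower there than the mean of the other 3 arrays, by a median of -0.35 on the log2 scale, and 5 of them by 0.5 or more. The same held for 15 of 15 endocytic and lysosomal genes (median -0.54, 8 by 0.5 or more) and 22 of 22 chylomicron genes (median -0.32, 6 by 0.5 or more). Medians were also lower for iron genes (-0.51, 5 of 6 lower), brush border hydrolases (-0.41, 7 of 10) and amino acid transporters (-0.40, 8 of 9). So were those of microvillus genes (-0.38, 14 of 15), sterol and bile acid genes (-0.73, 8 of 9) and gluconeogenic genes (-0.89, 5 of 5). On the other side, 12 of 12 smooth muscle genes (0.48), 11 of 13 mesenchyme genes (0.31), 12 of 12 enteric neuron genes (0.40), 20 of 20 cell cycle genes (0.45) and 11 of 13 imprinted and growth genes (0.39) were higher in replicate 3. Other cells of the wall were not, since 4 of 4 lymphatic genes (-0.28), 10 of 13 macrophage genes (-0.19), 9 of 13 blood endothelial genes (-0.17) and 3 of 5 glial genes (-0.37) were lower there, and pericyte genes had a median of 0.02. The glial value is a weak reading of glia, since 2 of the 5 genes were higher and Ednrb and Erbb3 are known from other gut cells. Replicate 4 had medians of -0.32 for smooth muscle, -0.21 for mesenchyme, -0.40 for enteric neurons and -0.32 for the cell cycle. These are partly built in, since a high replicate 3 raises the mean that each other array is set against. In median log2 signal replicate 4 was also lowest for these lists, but not for imprinted and growth genes. The cell cycle list gave 9.03, 8.90, 9.53 and 8.78 in replicates 1 to 4, and mesenchyme gave 9.51, 9.19, 9.60 and 9.18. In bulk tissue, fewer cells of a type and less RNA per cell cannot be told apart. Why replicate 3 differs was not tested.

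Signalling lists differed in direction in replicate 3, with medians of 0.37 for Wnt (8 of 10 genes higher) and 0.36 for retinoid metabolism (3 of 5 higher). Hox genes had a median of 0.26 (10 of 11 higher) and Notch genes one of -0.32 (8 of 10 lower). Several metabolic and general lists hardly differed there. In replicate 3 the median difference was -0.02 for the respiratory chain, 0.04 for cholesterol synthesis, -0.05 for endoplasmic reticulum genes, 0.02 for stem and intervillus genes and 0.01 for the reference genes. The signs of the respiratory chain and stem values turned under quantile normalization (0.01 and -0.01). Goblet genes were lower in replicate 1 in 11 of 11 (median -0.58, 6 by 0.5 or more) and higher in replicate 4 (0.46, 5 of 11 by 0.5 or more). By their brightest probe sets, antigen presentation and interferon genes were higher in replicate 4 in 10 of 10 (0.71) and lower in replicate 3 in 10 of 10 (-0.57). H2-D1 is among them, although another of its probe sets was lowest in replicate 4. Exocrine pancreas had medians of -1.07, 1.23, 1.39 and -1.99 in replicates 1 to 4, the widest of any list with 5 or more genes above background. Without replicate 3 the median SD of enterocyte genes went from 0.24 to 0.10 and that of endocytic and lysosomal genes from 0.28 to 0.09, whereas that of goblet genes was 0.45 with it and 0.44 without.

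**Figure D5:**
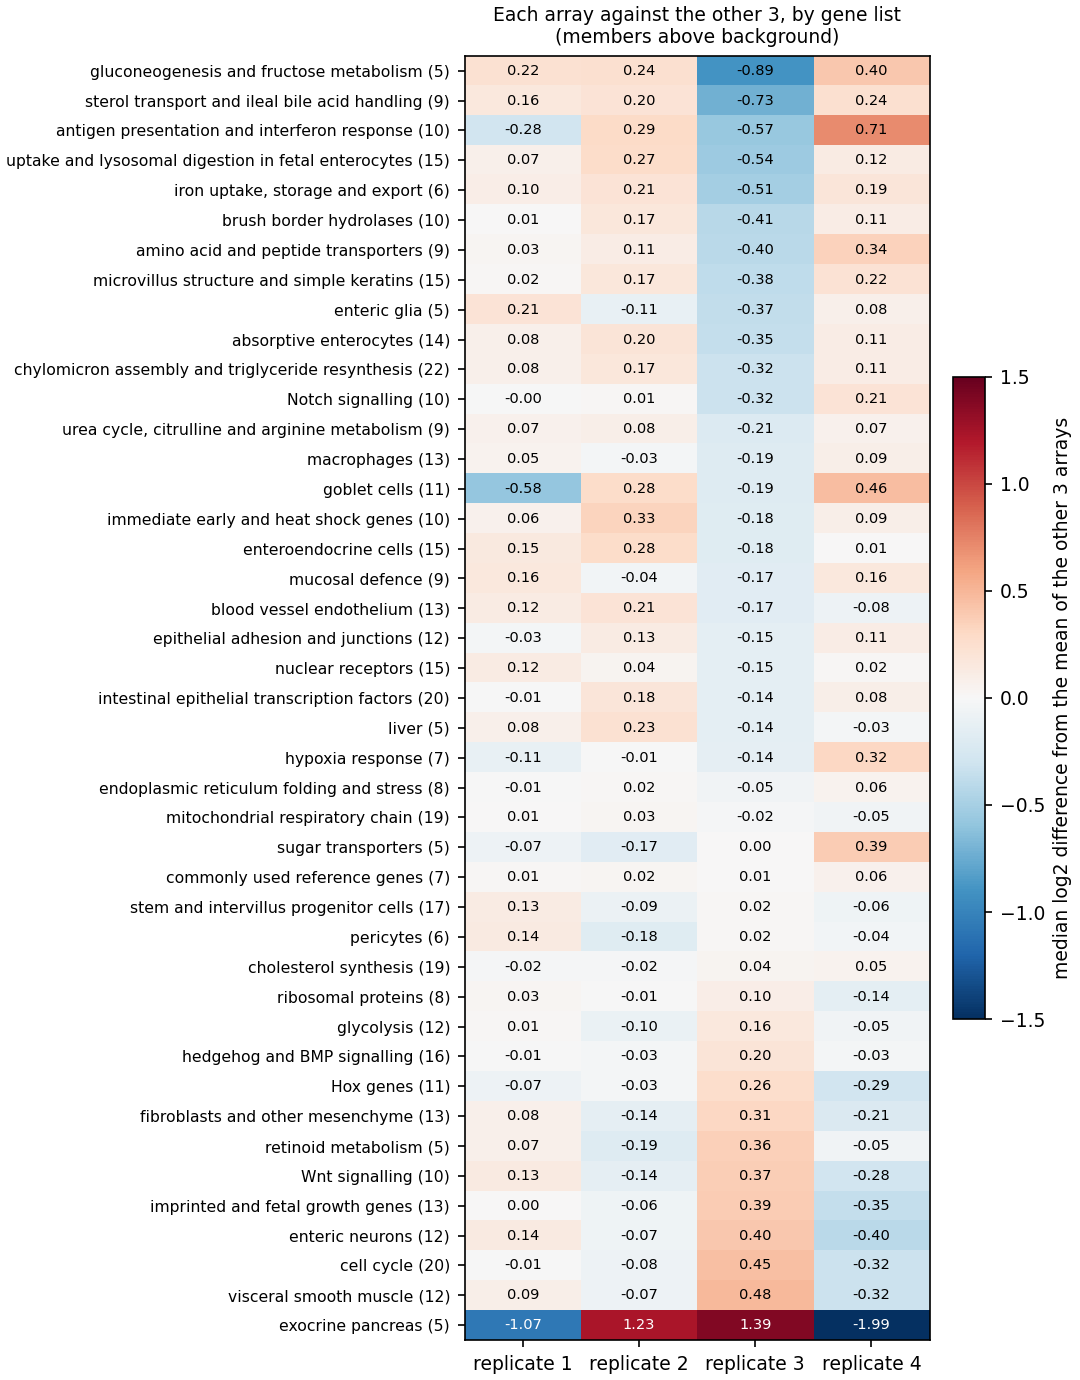
Median difference of each wild-type array from the mean of the other 3, on the log2(signal + 16) scale, for each list with 5 or more members above background (number in brackets), ordered by replicate 3. Blue cells at the top of the replicate 3 column are mostly epithelial lists such as gluconeogenesis (-0.89), red cells at its foot are smooth muscle (0.48) and exocrine pancreas (1.39), and replicates 1 and 4 have the lowest pancreas values.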

How the data were processed

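Total RNA of 4 wild-type small intestine samples was labelled and hybridised to oligonucleotide arrays, per the labels' protocols. The deposited values are linear signal intensities, 1 per probe set, and were used as given, since array medians on the log2 scale differed by 0.05 at most. How the authors condensed probes to probe sets was not given in the sources used here. The number of arrays limits the precision.

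Gene names came from the platform annotation: 34945 probe sets had 1 symbol, 932 several and 9160 none, and 34741 of the first were found in RefSeq by gene ID. Spread and differences between arrays were computed on log2(signal + 16) with Python 3.11.15, numpy 2.4.6 and pandas 2.3.3, by steps tested on simulated data. No comparison of groups was made.

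The lists (762 genes, 684 measured, 78 not analysed here) and members were chosen with earlier results of these data known. Named were the 20 brightest genes, the 12 widest with a mean of 100 or more, the 12 narrowest with a mean from 500 to 5000 (predicted genes left out of the last 2 sets), up to 5 brightest members of each list, members not above background, and any cell type marker, Hox, epithelial transcription factor or sex-linked gene. Named outside this rule, after their values were seen, were Acsl5, Apoc3, Plin2, Dgat2, Mogat2, Dgat1, Gpat3, Cubn, Amn, Lrp2, Ass1, Abcg8, Ihh, Shh, Bmp7, Rspo3, Cox7c, Ddit3, H2-Eb1, H2-Ea, Abhd16a, Ifit3, Tdo2, Cldn8, Mt1 and Slc39a4.

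Alternatives were other background levels, 3 of 4 arrays, quantile normalization, the median of a gene's probe sets, offsets of 1 and 64, other filters on low signal, and leaving out each array.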

Additional observations from a re-analysis of the deposited data

Results flagged for a closer look

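Values far from the other 3 arrays were found by setting the gap to the nearest array against the range of the 4. By this measure chance singles out about 1 in 20 groups, and of 10960 genes above background 744 (6.79%) were singled out. Among 211 named genes above background there were 21, and among 51 lists there were 7. These genes were named partly for their spread or their level, so their number is not set against chance.

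Of the 21 genes, 16 had a low replicate 3. They were enterocyte genes (Alpi at 3759, Cdhr5 at 2165), transporters (Slc3a1 at 1585, Slc40a1 at 3326, Slc51a at 1141, Slc51b at 267), Creb3l3 at 2215, Fbp1 at 3512, the hormone gene Nts at 235, the early response gene Fos at 184, Olfm4 at 395, Sectm1b at 121, the endothelial genes Plvap at 361 and Flt4 at 128, and the gastric genes Gkn3 at 92 and Tff2 at 103. Replicate 3 was highest for Mt2 at 5519 and Fdps at 2896. Replicate 4 was highest for Ifit3 at 240 and lowest for Rpl38 at 7871, and replicate 2 was lowest for Tff1 at 216.

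Of the lists, replicate 3 was lowest in the median log2 signal of absorptive enterocytes (11.91, others 12.45 to 12.54), lymphatic endothelium (7.22, others 7.77 to 7.80), stomach genes (6.89, others 8.06 to 8.18) and gluconeogenesis and fructose metabolism (7.26, others 8.45 to 8.58). It was highest for imprinted and fetal growth genes (10.13, others 9.89 to 9.91). Replicate 2 was lowest for genes known to rise at weaning (7.16) and highest for endoplasmic reticulum genes (10.55, others 10.42 to 10.44). The cause of these differences was not tested.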

How the results depend on the processing

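No paired analysis was possible because the values come from 1 group and no comparison of groups was made. With the background at a signal of 100, the count of probe sets above background was 12474. The count of genes with an SD of 0.5 or more was 560 with an offset of 1, 146 with an offset of 64, 2095 with no filter and 170 among means of 200 or more, and 144 to 525 when each array was left out (144 without replicate 3). The median difference of replicate 3 changed sign under quantile normalization for stem and intervillus genes (-0.0149), sugar transporters (-0.0268) and the respiratory chain (0.0102), and with an offset of 64 for sugar transporters (-0.0052). The other 179 such values kept their sign.

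Counts of list members above background moved beyond 1.5 times in 50 cases and stayed within it in 570. At the 90th percentile they were 3 for tuft cells, 3 for lymphocytes and 2 for the erythroid list. At the 99th percentile they were 0 for tuft cells, 1 for M cells, 7 for neurons, 3 for glia, 1 for pacemaker cells, 1 for mesothelium, 3 for liver, 0 for islets, 1 for squamous epithelium, 3 for sugar transporters, 6 for Wnt and 6 for Notch. At a signal of 100 they were 8 for enteroendocrine cells, 0 for tuft cells, 1 for M cells, 8 for stem cells, 3 for neurons, 3 for glia, 0 for pacemaker cells, 8 for blood endothelium, 1 for mesothelium, 3 for liver, 0 for islets, 1 for squamous epithelium, 0 for kidney, 0 for skeletal muscle, 3 for sugar transporters, 2 for weaning, 2 for Hox, 5 for Wnt, 5 for Notch and 3 for retinoid genes. With 3 of 4 arrays over the level they were 3 for Paneth cells, 2 for tuft cells, 2 for lymphocytes and 2 for the erythroid list, which was also 2 under quantile normalization. With the median of a gene's probe sets they were 1 for M cells, 3 for glia and 2 for mesothelium. Leaving out each array gave 1 to 2 for Paneth cells, tuft cells, M cells, lymphocytes and the erythroid list.

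The mean signal of 96 named genes differed by more than 1 SD when the median of their probe sets was used, and that of 166 did not. For 0 of them did it differ so under quantile normalization or without any 1 array. A signal near the background does not separate a silent gene from a dim probe set.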

Other observations

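All 12 measured junction genes were above background, with mean signals from 196 to 4769, and 6 of them exceeded 1000. Epcam, an epithelial adhesion molecule, gave 4797, 5041, 4594 and 4644, the claudin Cldn7 gave 3801, 3968, 3647 and 3415, and the intestinal cadherin Cdh17 gave 3523, 3681, 3084 and 3417. These 3 varied little between arrays. Over the list 9 of 12 genes were lower in replicate 3, by a median of -0.15, and the claudin Cldn8 varied most, with 449, 540, 656 and 267. Immediate early and heat shock genes, which respond quickly to stimuli, were above background in 10 of 12, with Fos at 498, 508, 184 and 533 and Jun at 763, 1060, 468 and 539, both lowest in replicate 3. Of 8 genes known to be induced by low oxygen, 7 were above background, with Ndrg1 brightest at 4968, 5753, 6738 and 5779.

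Retinoic acid is made in the gut by aldehyde dehydrogenases, and Aldh1a1 gave 832, 608, 1196 and 667 and Aldh1a2 gave 352, 362, 336 and 305. Lrat, which stores vitamin A as ester, gave 1, 636, 288 and 493 by its brightest probe set, but 243, 344, 173 and 260 by the other, so only 1 of its probe sets was near 0 in replicate 1. Among defence genes, the chemokine Ccl25, which draws lymphocytes to the small intestine, gave 1549, 1518, 1773 and 1496, and Reg1, a secreted lectin-like protein, gave 647, 983, 214 and 899. Nos2, the inducible nitric oxide synthase, gave 2 in every array. All 6 pericyte genes were above background, with Rgs5 at 511, 423, 385 and 531, and of 7 mesothelial genes 4 were, with Upk3b at 438, 388, 453 and 486.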
